A study of Mus musculus with 10 samples.

Results

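Adipogenesis, the formation of fat cells from precursors, is steered by transcription factors, and 42 genes of factors known to promote or restrain it were examined in cultured adipose stem and precursor cells (ASPCs). The genes were listed by symbol for their known role, with no rule on measured values, out of 25229 genes in the count table. Counts were found for all 42, and 41 of them were high enough to be tested among 14251 genes. In the textbook order of events, C/EBPβ and C/EBPδ are induced first when a precursor is given differentiation signals, and they switch on C/EBPα and PPARγ, which then keep each other on and drive the genes of the mature adipocyte. Factors of the KLF, EBF, STAT and nuclear receptor families feed into this cascade, and others, such as GATA factors, KLF2, the Notch target HES1 and the Hippo effectors YAP and TAZ, hold precursors back.

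WT mouse cells with the surface phenotype CD45-CD31-Pdgfra+ were sorted from the stromovascular fraction of perigonadal white adipose tissue, grown to confluence and not passaged. They were then given 100 nM FICZ, a ligand of the aryl hydrocarbon receptor (AHR), or DMSO, its vehicle, and lysed 6 hr later for bulk RNA sequencing. Each group had 5 libraries, numbered 1 to 5 in both. Whether a number stands for a mouse or a culture, and the sex and age of the mice, were not given in the sources used here, so p-values measure the spread between these libraries, which may be technical. The labels name no adipogenic induction mix, so the levels are those of confluent precursors.

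The total count per library ranged from 38328611 in DMSO replicate 1 to 50210111 in DMSO replicate 2. Values are given as CPM, the counts relative to a library's total scaled by its TMM factor, and levels of different genes are compared as CPM per kilobase of exon. A floor of 3 counts corresponded to between 0.0603 and 0.0787 CPM and covers counting error only. The treatment was seen in the AHR targets Cyp1a1, which had between 11.6 and 42.9 CPM in DMSO and between 144 and 355 CPM in FICZ, and Ahrr, with between 6.24 and 11.6 CPM in DMSO and between 27.4 and 34.6 CPM in FICZ. In the quasi-likelihood test of edgeR, Cyp1a1 rose by a log2 value of 3.25 (SE, the standard error, 0.38; adjusted p = 0.0189) and Ahrr by 1.66 (SE 0.16; edgeR adjusted p = 0.00324). Without DMSO replicate 1 or 2, or FICZ replicate 1, 2 or 3, the edgeR adjusted p of Cyp1a1 lay between 0.0692 and 0.0924, above the threshold of 0.05, while with the replicate number as block it was 5.6e-05 (log2 fold change 3.32, SE 0.10), and in DESeq2 without a block 6.7e-18. Without the pair numbered 5 the edgeR adjusted p was 0.0615 for both Cyp1a1 and Ahrr. For Cyp1a1 it was also above the threshold without a filter (0.0726) and with Alb, the albumin gene, as a covariate (0.0656).

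The cells were checked against markers of their sort and of other cell types. All 11 ASPC markers were counted in every library, with summed levels between 3188 and 4301 CPM, led by Pdgfra. Of the endothelial list of 8 genes, led by Tek, the summed level was between 65.8 and 89.6 CPM, and Pecam1, the gene of CD31, had between 22 and 79 counts. Macrophage markers, 10 genes led by Csf1r, summed to between 25.1 and 55.9 CPM, and Ptprc, the gene of CD45, had between 7 and 83 counts. The mesothelial list had 8 of 9 genes in the table, led by Krt8, and between 10.0 and 31.5 CPM, and Msln had between 9 and 32 counts. The mural list of 4 genes, led by Cspg4, summed to between 13.6 and 23.1 CPM and the adipocyte list of 6 genes, led by Plin1, to between 4.43 and 22.2 CPM, with Lep at 0 counts in every library. All 15 hepatocyte markers were counted as well, with Alb, the albumin gene, the most abundant. Their summed level was 4052, 1668, 1897, 3968 and 9711 CPM in DMSO replicates 1 to 5 and 2351, 2064, 2427, 1793 and 2211 CPM in FICZ replicates 1 to 5. DMSO replicate 5 was the highest, and in FICZ the 5 libraries lay within the range of DMSO. In bulk RNA, fewer cells of a type and less RNA per cell cannot be told apart. DMSO replicate 5 also had the highest macrophage sum, 55.9 CPM, the highest mesothelial sum, 31.5 CPM, and the highest endothelial sum, 89.6 CPM. Krt8 made up 26.6 CPM of that mesothelial sum, and the other mesothelial genes together were lower there than in any other library.

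Most of the regulators were expressed in the vehicle-treated precursors. Their median level in DMSO was 8.64 CPM per kilobase, against 5.37 over the 14000 tested genes with an exon length. Of the 42, 19 had at least 10 CPM per kilobase, 16 between 1 and 10, and 7 less than 1. Cebpb was the highest with 72.7 ± 15.9 CPM per kilobase (SD, n = 5 libraries), above 95.5% of the tested genes. Tbx15, which patterns the mesoderm and marks subcutaneous depots, was the lowest with 0.058 ± 0.015 CPM per kilobase. With 6 to 12 counts in a library it was the gene that missed the filter on low counts. In the order of mean levels, neighbours overlapped between DMSO libraries in 35 of 41 positions. The neighbours that did not overlap were Cebpb above Klf6, Wwtr1 above Twist2, Yap1 above Nr2f2, Foxc2 above Zfp423, Zbtb16 above Prdm16 and Gata3 above Tbx15. With the length of the longest transcript in place of all exons, the means were 33.7 for Wwtr1, 32.8 for Twist2, 31.3 for Yap1 and 31.6 CPM per kilobase for Nr2f2, so the order of Yap1 and Nr2f2 turned.

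**Figure D1:**
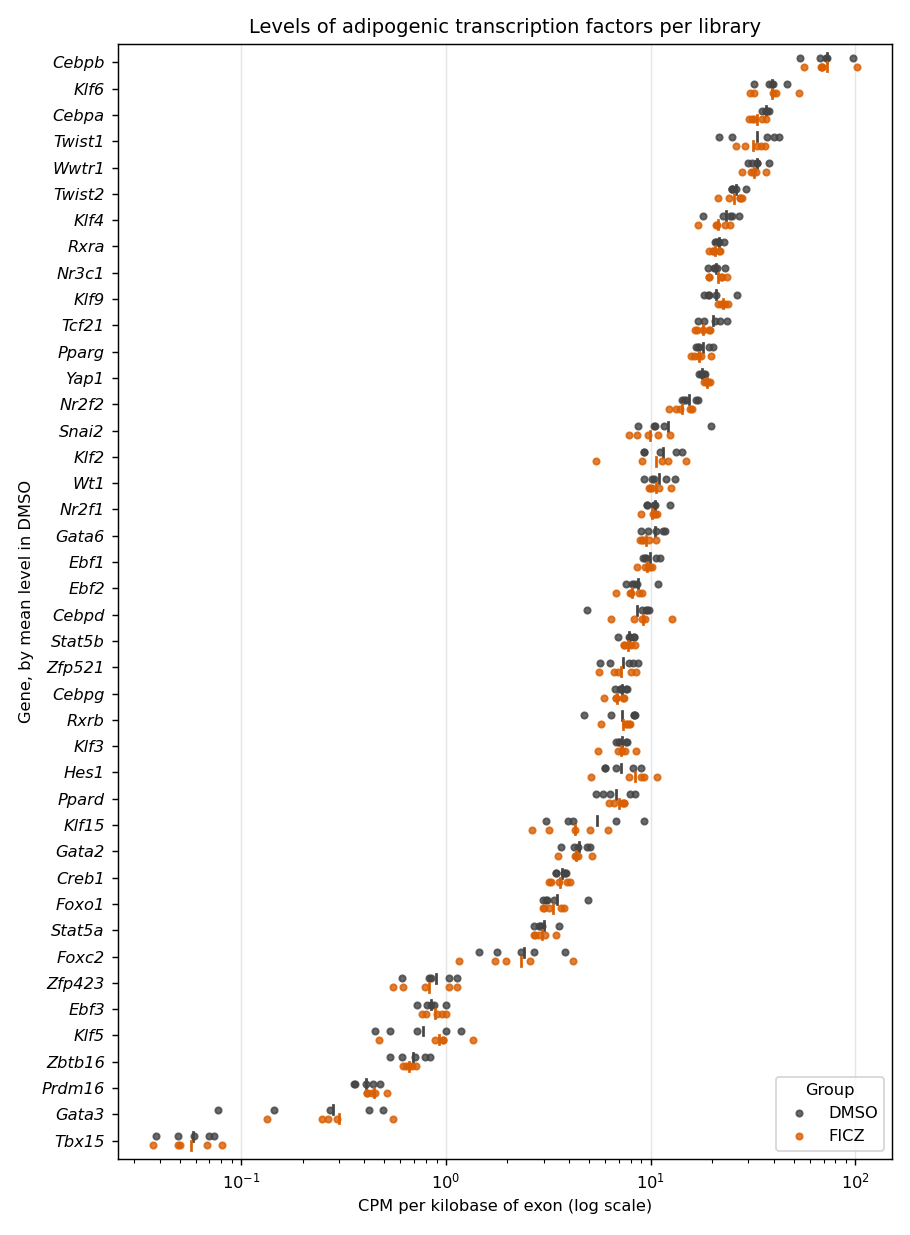
CPM per kilobase of exon on a log scale for the 42 regulators, ordered by their mean in DMSO; each point is a library (5 DMSO in grey, 5 FICZ in orange) and each vertical tick a group mean. Cebpb has the highest mean level and Tbx15 the lowest, and for every gene the points of the groups overlap.

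Of the 41 tested regulators 0 passed the threshold of an adjusted p of 0.05 in edgeR, where 0.0211% of all genes did, and 0 of the 41 reached an unadjusted p of 0.05 or less, against 4.82% of all genes. Once edgeR was given the replicate number as a block, 0 of the 41 passed, against 0.0561% of all genes, and 2 reached that unadjusted p, against 4.65%. Both of these, Klf15 and Snai2, were lower with FICZ, and 2.17% of all genes were lower with such a p. DESeq2, which kept all 42, placed 0 past the threshold (0.0845% of all genes) and 1, Cebpa, at an unadjusted p of 0.05 or less (4.89% of all genes). With the block it placed 0 past the threshold (0.140% of all genes) and 2, again Klf15 and Snai2, at that unadjusted p (3.66% of all genes). In limma-voom the counts were 0 past the threshold (0.0211% of all genes) and 0 at the unadjusted p (1.96% of all genes). For 0 of the 41 did the FICZ libraries lie apart from the DMSO libraries in log2 CPM, as they did for 0.470% of all genes. In edgeR without a block, the count at that p was 1 without DMSO replicate 3 (Tcf21), 1 without DMSO replicate 5 (Klf9), and 2 without FICZ replicate 5 (Cebpa and Hes1). Over all genes the shares in these fits were 6.45%, 2.39% and 3.89%.

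The log2 fold changes of the 41 genes ranged from -0.35 to 0.26, with a median of -0.04 against 0.01 over all genes tested. There were 28 genes with a value below 0 and 13 above, or 68.3% below, against 46.2% of all genes. With the replicate block the median was also -0.04, against 0.01, and 29 genes were below 0. The precision differed between genes. For 32 of the 41 the 95% interval of the log2 fold change lay within 0.5 on either side of 0, which was so for 64.3% of all genes, and for 39 it lay within 1, against 87.3% of all genes. Gata3 and Klf15 were the exceptions, with intervals from -0.97 to 1.15 and from -1.04 to 0.33. With the replicate block 36 of the 41 intervals lay within 0.5, against 69.6% of all genes, and all 41 within 1, against 88.6%. In the fit without a block, the median among 17 genes listed as promoting adipogenesis was -0.04, with 6 above 0 and 11 below. Among 8 listed as restraining it the median was -0.04, with 2 above 0 and 6 below.

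**Figure D2:**
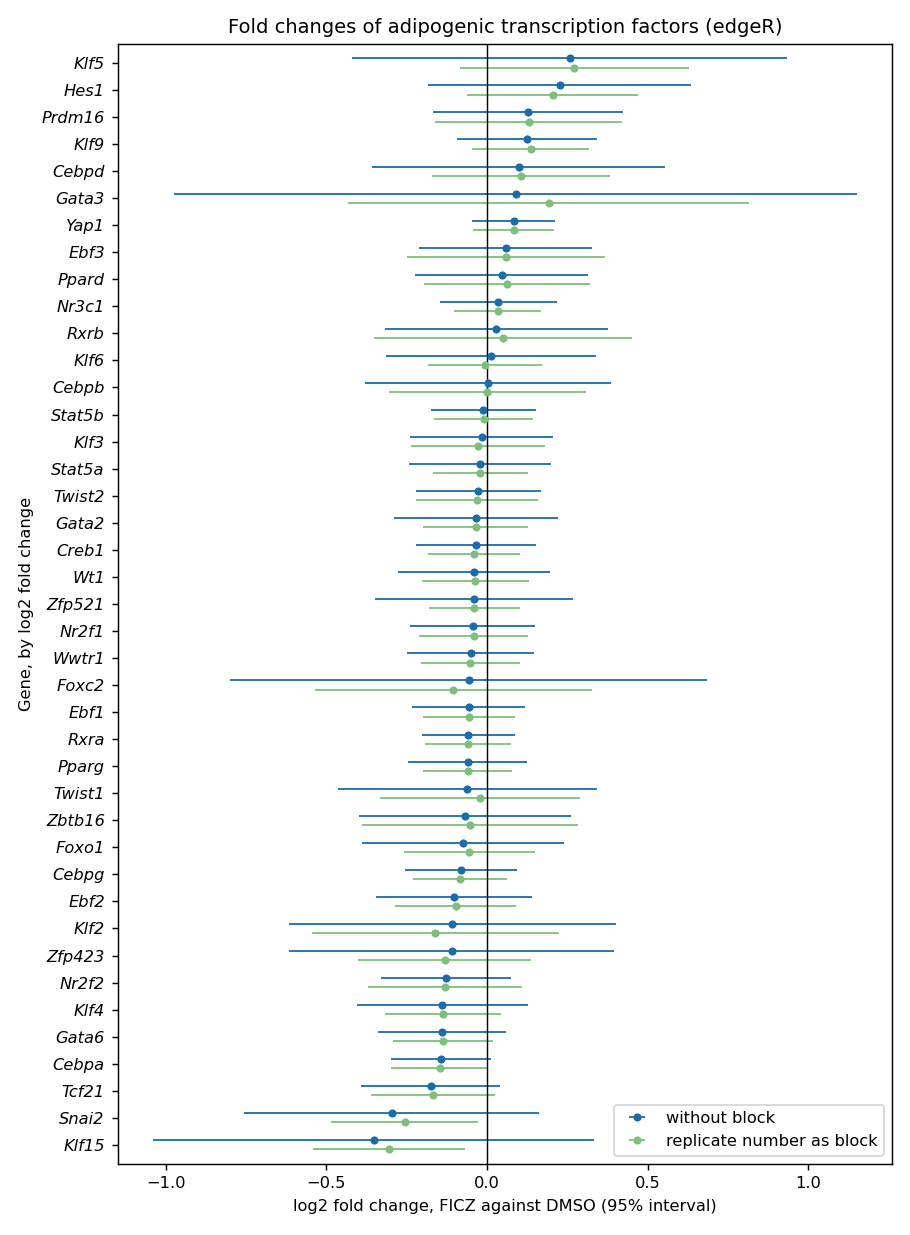
Log2 fold change of FICZ against DMSO in edgeR with its 95% interval for the 41 tested regulators, without a block (blue) and with replicate numbers as the block (green). Without the block every interval contains 0, and with it those of Klf15 and Snai2 do not.

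The C/EBP family opens the cascade. Cebpb, whose product is among the first factors induced by differentiation signals, had 146, 101, 109, 110 and 80.4 CPM in DMSO replicates 1 to 5 and 103, 103, 104, 154 and 84.5 CPM in FICZ replicates 1 to 5. Replicate 5 was the lowest in both groups, the highest was replicate 1 in DMSO and replicate 4 in FICZ, and the groups overlapped over nearly their whole range. Between the groups the log2 fold change came to 0.0026 (SE 0.18; 95% interval -0.38 to 0.39; edgeR adjusted p = 0.999), and its sign turned with the scaling of the libraries. The value was -0.09 without DMSO replicate 5 and -0.10 with Alb in the model. Tmem189 has exons on the other strand that cover 20.7% of Cebpb's exon sequence, and since the handling of strand is not given in the sources used here, its count may include reads of that gene.

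Cebpd, the partner of Cebpb in the early step, had 36.6, 36.0, 35.6, 34.0 and 18.4 CPM in DMSO replicates 1 to 5 and 34.1, 35.1, 30.9, 47.9 and 24.0 CPM in FICZ replicates 1 to 5. Replicate 5 was the lowest in both groups, FICZ replicate 4 was the highest library, and the groups overlapped. The log2 difference between group means fitted by edgeR was 0.10 (SE 0.21; 95% interval -0.36 to 0.55; edgeR adjusted p = 0.999). The value was -0.05 without DMSO replicate 5, -0.05 without FICZ replicate 4 and -0.14 with Alb in the model. With the replicate block it was 0.11 and without the pair numbered 5 it was 0.05, and 18 of 21 alternatives kept the sign. Spidr likewise covers 15.0% of the exon sequence of Cebpd from the other strand, so its count carries the same uncertainty.

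Cebpa, which acts later and sustains the mature state, had 99.9, 97.2, 91.9, 96.4 and 96.4 CPM in DMSO replicates 1 to 5 and 82.9, 84.0, 80.1, 92.5 and 96.6 CPM in FICZ replicates 1 to 5. FICZ replicates 1, 2 and 3 lay under every DMSO library, and FICZ replicates 4 and 5 lay within the range of DMSO, so the groups overlapped. The DMSO libraries differed little, with a coefficient of variation of 2.99%. FICZ against DMSO gave a log2 fold change of -0.14 (SE 0.071; 95% interval -0.30 to 0.01; edgeR adjusted p = 0.999), and FICZ was higher in 1 of the 5 same-numbered pairs. With the replicate block it was -0.15 (SE 0.064; edgeR adjusted p = 0.929). Its unadjusted p was 0.05 or less in DESeq2 without a block, and in edgeR with upper-quartile factors or the 1 CPM filter. The same held in edgeR without the pair numbered 5 and without FICZ replicate 5. In edgeR as reported and in the remaining alternatives it was above 0.05. Treatment took up 47.5% of the spread of Cebpa in log2 CPM, against a median of 3.31% over the 41 genes and 4.35% over all genes. With no effect of treatment or replicate number the mean share of treatment would be 11.1%, which is not a median. Cebpg, whose product dimerizes with the other C/EBPs, had between 37.7 and 43.2 CPM in DMSO and between 33.2 and 41.5 CPM in FICZ. Per length, Cebpb with 72.7 was above Cebpa with 36.6 ± 1.09, and Cebpd with 8.58 ± 2.07 and Cebpg with 7.24 ± 0.391 CPM per kilobase were lower and overlapped each other in DMSO.

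PPARγ, the nuclear receptor that commits a precursor to the adipocyte fate, works as a heterodimer with an RXR. Pparg had 49.0, 50.5, 59.4, 50.8 and 56.9 CPM in DMSO replicates 1 to 5 and 48.3, 46.7, 58.1, 52.1 and 50.5 CPM in FICZ replicates 1 to 5. Replicate 3 was the highest in both groups, and the groups overlapped. For Pparg edgeR fitted a log2 fold change of -0.06 (SE 0.085; 95% interval -0.25 to 0.13; edgeR adjusted p = 0.999), and replicate number took up 82.3% of the spread. With no effect of number or treatment the share of replicate number would be 44.4% on average. Leaving out single libraries moved the log2 fold change from -0.11 without FICZ replicate 3 to -0.02 without DMSO replicate 3. Counts per gene do not separate the transcript of the adipocyte form of PPARγ from that of the widely expressed form. Ppard, the related receptor found in most tissues, had between 40.7 and 63.0 CPM in DMSO and between 47.2 and 55.9 CPM in FICZ. Rxra ranged from 112 to 125 CPM in DMSO and from 105 to 120 CPM in FICZ, and Rxrb from 18.8 to 33.2 CPM and from 22.7 to 31.4 CPM. In DMSO, Rxra with 21.5 ± 0.920 CPM per kilobase stood beside Pparg with 18.1 ± 1.54, and both were above Rxrb with 7.22 ± 1.62 and Ppard with 6.79 ± 1.30. The order of Rxra and Pparg depended on the length used, since with the longest transcript Pparg had 25.1 and Rxra 23.9 CPM per kilobase, and so did that of Rxrb and Ppard, with 10.9 and 13.7.

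The KLF genes encode zinc finger factors that act at several steps. Klf4, an early activator of Cebpb, had between 55.1 and 82.6 CPM in DMSO and between 51.8 and 74.1 CPM in FICZ. Klf5, induced by the early C/EBPs, was low, between 2.34 and 6.16 CPM in DMSO and between 2.45 and 7.06 CPM in FICZ. Klf6, a repressor of the preadipocyte gene Dlk1, was the highest of the family with 39.0 ± 5.09 CPM per kilobase in DMSO. It ranged from 141 to 203 CPM in DMSO and from 135 to 234 CPM in FICZ, with replicate 3 the highest and replicate 4 the lowest in both groups. Klf2 and Klf3, which restrain adipogenesis, had between 17.1 and 26.2 CPM and between 76.3 and 86.6 CPM in DMSO, and between 10.1 and 27.6 CPM and between 62.5 and 94.97 CPM in FICZ. The groups of each of these genes overlapped.

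Klf15, which acts late and raises genes of glucose uptake and gluconeogenesis in fat and liver, had 11.7, 11.01, 8.63, 18.8 and 25.9 CPM in DMSO replicates 1 to 5 and 11.9, 8.93, 7.32, 14.1 and 17.3 CPM in FICZ replicates 1 to 5. In both groups replicate 5 was the highest and replicate 3 the lowest, and the groups overlapped, while within the pairs FICZ was higher in 1 of 5. Without a block the fitted log2 fold change was -0.35 (SE 0.31; edgeR adjusted p = 0.999). With the replicate block it was -0.31 (SE 0.10; 95% interval -0.54 to -0.07; edgeR adjusted p = 0.929), which did not pass the threshold. DMSO replicate 5, where Klf15 was highest, also had the highest hepatocyte sum. The value of Klf15 was -0.07 without DMSO replicate 5 alone and -0.25 without the whole pair numbered 5. With Alb in the model it was 0.08, but Alb itself had a log2 fold change of -1.09. That fit therefore cannot separate treatment from liver transcripts, whose part in the value was not tested.

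Klf9, a factor that promotes the middle of the program, had 92.2, 87.5, 93.2, 100 and 127 CPM in DMSO replicates 1 to 5 and 103, 107, 111, 109 and 115 CPM in FICZ replicates 1 to 5. DMSO replicate 5 was the highest library, the other DMSO libraries lay under every FICZ library, and the groups overlapped through that single one. FICZ was higher in 4 of the 5 pairs. Klf9 was singled out after its values were seen, because leaving out DMSO replicate 5 moved its log2 fold change from 0.12 to 0.22 (SE 0.064; edgeR adjusted p = 1.00), with an unadjusted p under 0.05. With Alb in the model it was 0.25 (edgeR adjusted p = 1.00).

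**Figure D3:**
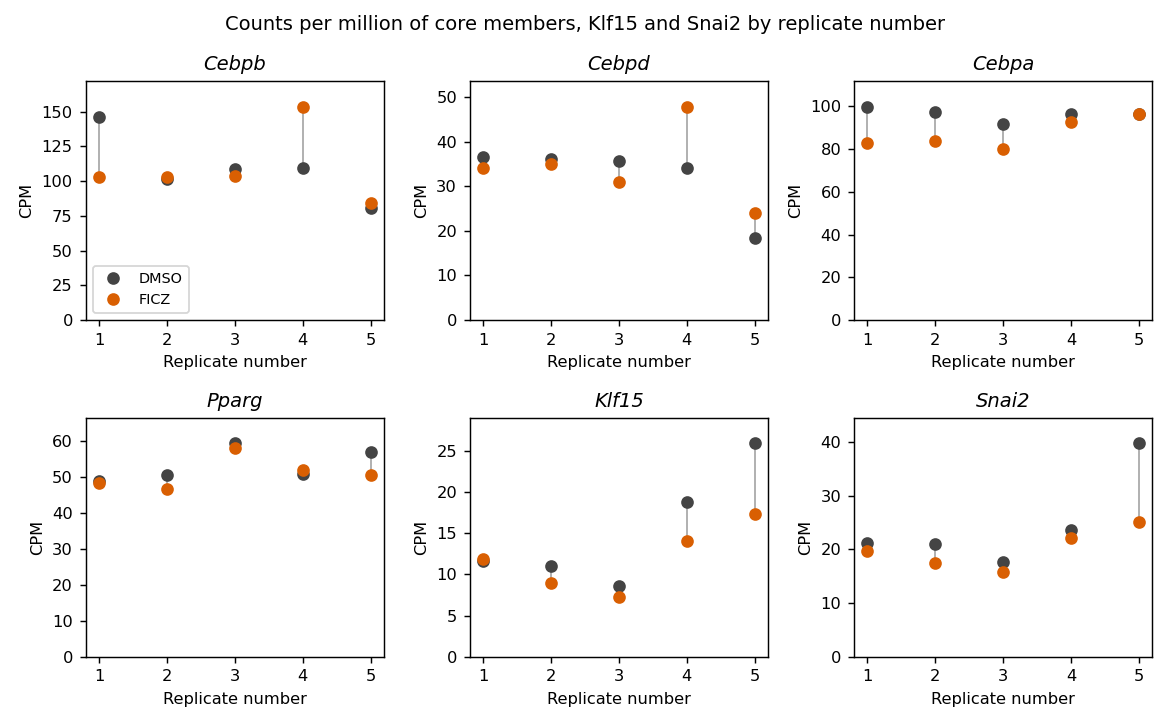
CPM against replicate number for Cebpb, Cebpd, Cebpa, Pparg, Klf15 and Snai2; grey points are DMSO, orange points FICZ, 1 library each, and lines join libraries of the same number. Cebpa is lower with FICZ in 4 of the 5 pairs, and Klf15 and Snai2 are highest in replicate 5 of both groups.

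EBF factors and the zinc finger proteins ZFP423 and ZFP521 set the commitment of precursors. Ebf1 and Ebf2, which promote the white and the brown or beige program, had between 89.2 and 109 CPM and between 52.7 and 75.7 CPM in DMSO, and between 84.0 and 99.4 CPM and between 47.2 and 62.8 CPM in FICZ. Ebf3 was lower, between 6.69 and 9.26 CPM in DMSO and between 7.03 and 9.23 CPM in FICZ. Zfp423, a factor that raises Pparg in committed preadipocytes, had between 3.44 and 6.38 CPM in DMSO and between 3.09 and 6.38 CPM in FICZ. Zfp521, which opposes ZFP423 and EBF1, had between 40.0 and 60.8 CPM in DMSO and between 39.4 and 59.9 CPM in FICZ. Per length the repressor Zfp521, with 7.35 ± 1.26 CPM per kilobase in DMSO, was above Zfp423, with 0.892 ± 0.204, and their libraries did not overlap. Both followed the replicate number closely, which took up 96.0% of the spread of Zfp521 and 90.5% of that of Zfp423. Groups overlapped for each of these genes.

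GATA2 and GATA3 restrain the step from preadipocyte to adipocyte. Gata2 had between 19.8 and 27.2 CPM in DMSO and between 18.9 and 28.0 CPM in FICZ. Gata3 was near the lower limit of what was tested, with 15 to 87 counts in a library and between 0.308 and 1.97 CPM in DMSO and between 0.531 and 2.19 CPM in FICZ. Its replicate number took up 86.6% of the spread, and the standard error of its log2 fold change was 0.49 without the block and 0.27 with it. Gata6, which is expressed in visceral mesenchyme, had between 58.2 and 76.3 CPM in DMSO and between 57.7 and 68.8 CPM in FICZ, and FICZ was higher in 1 of the 5 pairs. In DMSO Gata6 was the highest of the 3 per length, with 10.5 ± 1.18 CPM per kilobase against 4.44 ± 0.555 for Gata2 and 0.282 ± 0.177 for Gata3, and the libraries of these genes did not overlap.

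Zfpm2 encodes FOG2, a cofactor that binds GATA proteins, and was examined among 22 relatives and partners of the listed families. It had 74.3, 78.9, 75.9, 73.6 and 79.0 CPM in DMSO replicates 1 to 5 and 59.5, 65.8, 66.4, 72.7 and 65.8 CPM in FICZ replicates 1 to 5. Every FICZ library lay under every DMSO library, by a narrow margin for FICZ replicate 4. Groups lay apart, in either direction, for 0.470% of all genes tested. Zfpm2 had a log2 fold change of -0.21 (SE 0.069; 95% interval -0.36 to -0.06; edgeR adjusted p = 0.999), and over all genes tested the difference did not pass the threshold. It was -0.22 with Alb in the model and -0.20 without DMSO replicate 5. Of these 22 genes 16 were tested, 5 with a log2 fold change above 0 and 11 below, 0 passed the threshold in edgeR, and 2, Zfpm2 and Ppara, were lower with an unadjusted p of 0.05 or less, where 3.49% of all genes were. With the replicate block this was so for 1, Zfpm2, with a log2 fold change of -0.21 (SE 0.065; edgeR adjusted p = 0.929), where 2.17% of all genes were. Mecom had a log2 fold change of 0.38 (SE 0.23), which was 0.24 with Alb in the model. Gata4, a relative of Gata6, had one of -0.25 (SE 0.24), and of -0.30 with the block (SE 0.15; edgeR adjusted p = 0.929). It was lower with FICZ in all 5 pairs, as for 2.81% of all genes tested. Leaving out single libraries moved its log2 fold change from -0.38 without FICZ replicate 3 to -0.11 without FICZ replicate 5. The most abundant per length was Snai1 with 77.9 ± 8.28 CPM per kilobase in DMSO.

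Prdm16 and Foxc2, linked to the brown and beige programs, were among the lower regulators per length, with 0.408 ± 0.0521 and 2.42 ± 0.917 CPM per kilobase in DMSO, and Ebf2, which also acts there, was higher with 8.71 ± 1.29. Prdm16, a coregulator that fixes the brown identity, had between 3.32 and 4.46 CPM in DMSO and between 3.84 and 4.79 CPM in FICZ. Foxc2, a forkhead factor linked to the beige program, varied more, between 3.96 and 10.4 CPM in DMSO and between 3.14 and 11.4 CPM in FICZ, with replicate 3 the highest in both groups.

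Several members carry hormone signals to the cascade. Nr3c1, the glucocorticoid receptor gene and the target of the dexamethasone used in differentiation mixes, had between 147 and 177 CPM in DMSO and between 148 and 182 CPM in FICZ, with replicate 1 the lowest and replicate 5 the highest in both groups. Creb1, the mediator of cyclic AMP, had between 47.6 and 53.2 CPM in DMSO and between 43.8 and 55.6 CPM in FICZ. Stat5a and Stat5b, which carry growth hormone signals to Pparg, had between 19.2 and 25.5 CPM and between 38.3 and 46.0 CPM in DMSO, and between 19.2 and 24.6 CPM and between 41.1 and 46.4 CPM in FICZ. Stat5a shares 8.52% of its 50-base stretches with other genes, mostly Stat5b, so that reads of the pair may be mixed. Foxo1, a target of insulin signals that restrains Pparg, had 42.9 CPM in DMSO replicate 5 and between 25.8 and 29.3 CPM in the other DMSO libraries, and between 26.0 and 32.9 CPM in FICZ. Nr2f1 and Nr2f2, the COUP-TF receptors, had between 48.8 and 63.1 CPM and between 122 and 148 CPM in DMSO, and between 45.6 and 54.7 CPM and between 106 and 137 CPM in FICZ. Zbtb16, a zinc finger factor that glucocorticoids can induce, had between 2.81 and 4.42 CPM in DMSO and between 3.25 and 3.77 CPM in FICZ. Per length of all exons Nr3c1 with 20.8 ± 1.43 CPM per kilobase in DMSO was the highest of these 8 genes and Zbtb16 with 0.695 ± 0.125 the lowest. With the longest transcript Nr2f2 was the highest, with 31.6 against 24.9 CPM per kilobase for Nr3c1.

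Of 10 genes that glucocorticoids are known to raise, all were tested, 2 with a log2 fold change above 0 and 8 below. In edgeR 0 passed the threshold, and 1, Dusp1, was lower with an unadjusted p of 0.05 or less, where 3.49% of all genes were. Dusp1 was also the only one with the block, where 2.17% of all genes were lower. The count was 0 without DMSO replicate 5 and 0 with Alb in the model, and the unadjusted p of Dusp1 was also above 0.05 without a filter, in DESeq2 with the block, without the pair numbered 5, and without DMSO replicate 1, 2, 3 or 4 or FICZ replicate 1, 2 or 5. Dusp1, a phosphatase that switches off MAP kinases, had 13.6, 12.9, 13.6, 14.2 and 13.7 CPM in DMSO replicates 1 to 5 and 11.2, 11.1, 13.2, 12.9 and 10.4 CPM in FICZ replicates 1 to 5. FICZ replicates 3 and 4 reached into the DMSO range, and FICZ was higher in 0 of the 5 pairs, as for 2.81% of all genes tested. For Dusp1 the fitted log2 fold change was -0.20 (SE 0.092; edgeR adjusted p = 0.999). Lcn2 and Errfi1 had log2 fold changes of -0.77 (SE 0.44) and -0.21 (SE 0.16), and Mt1 one of -0.22 (SE 0.17). Those of Lcn2 and Mt1 were -0.10 and -0.0064 without DMSO replicate 5, and turned to 0.19 and 0.04 with Alb in the model. Mt2 was the most abundant per length with 214 ± 31.6 CPM per kilobase in DMSO, and Mt1 with 211 ± 64.7 overlapped it.

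Factors of mesenchymal and depot identity ranged widely, from Twist1 with 33.2 ± 9.35 CPM per kilobase in DMSO to Tbx15, the lowest of all. Twist1, a helix-loop-helix factor of mesenchyme, had between 35.0 and 69.0 CPM in DMSO and between 42.4 and 59.1 CPM in FICZ, and Twist2 between 79.4 and 92.8 CPM and between 67.7 and 88.8 CPM. The count of Twist2 is uncertain, since Gm29100 on the other strand covers 46.5% of its exon sequence. Tcf21, a factor of visceral preadipocytes, had 42.9, 48.5, 40.1, 55.3 and 51.5 CPM in DMSO replicates 1 to 5 and 45.7, 42.2, 38.5, 45.2 and 39.6 CPM in FICZ replicates 1 to 5. The groups overlapped, and FICZ was higher in 1 of the 5 pairs. Wt1, which marks visceral fat progenitors and mesothelium, had between 57.4 and 81.6 CPM in DMSO and between 61.1 and 77.8 CPM in FICZ. The summed mesothelial markers lay between 10.0 and 31.5 CPM, and Krt8 gave 26.6 CPM of the highest sum, that of DMSO replicate 5.

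Snai2 encodes Slug, a zinc finger repressor of mesenchymal cells. It had 21.1, 20.9, 17.6, 23.5 and 39.7 CPM in DMSO replicates 1 to 5 and 19.7, 17.4, 15.8, 22.1 and 25.1 CPM in FICZ replicates 1 to 5. Replicate 3 was the lowest and replicate 5 the highest in both groups, DMSO replicate 5 stood above all other libraries, and the groups overlapped. FICZ was higher in 0 of the 5 pairs, as for 2.81% of all genes tested. Without a block the log2 fold change of Snai2 was -0.30 (SE 0.21; edgeR adjusted p = 0.999) and -0.26 with the replicate block (SE 0.098; 95% interval -0.49 to -0.03; edgeR adjusted p = 0.929), which did not pass the threshold. It was -0.06 without DMSO replicate 5, the library with the highest hepatocyte sum, and -0.16 without the whole pair numbered 5. With Alb in the model it was -0.0029, a fit that cannot separate treatment from liver transcripts, since Alb had a log2 fold change of -1.09. The part of liver transcripts in the value of Snai2 was not tested.

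The Notch target HES1 and the Hippo effectors YAP and TAZ hold precursors in the undifferentiated state. Hes1, a Notch target that represses differentiation genes, had between 12.2 and 18.3 CPM in DMSO and between 10.4 and 21.8 CPM in FICZ. Wwtr1, which encodes TAZ, a corepressor of PPARγ, had between 143 and 181 CPM in DMSO and between 133 and 175 CPM in FICZ. Yap1, the other Hippo effector, had 166, 170, 168, 163 and 159 CPM in DMSO replicates 1 to 5 and 169, 180, 177, 175 and 173 CPM in FICZ replicates 1 to 5. FICZ replicate 1 lay within the DMSO range and the other FICZ libraries above it. FICZ was higher in all 5 pairs, as for 4.32% of all genes tested, and the unadjusted p was above 0.05 with and without the block. Treatment took up 63.3% of the spread of Yap1, whose coefficient of variation of 2.50% in DMSO was the smallest of the 41 genes. Per length Wwtr1 with 33.1 ± 2.95 CPM per kilobase in DMSO was above Yap1 with 17.8 ± 0.446, but with the longest transcript the means were 33.7 and 31.3 CPM per kilobase.

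Of 12 Hippo partners and targets 10 symbols were in the table and tested, 7 with a log2 fold change above 0 and 3 below, and in edgeR 0 passed the threshold or had an unadjusted p of 0.05 or less. With the replicate block 2, Tead4 and Ccn1, were higher with such a p, where 2.48% of all genes were, and 0 passed the threshold. The median of the list was 0.045, and 0.098 with the block. It turned to -0.017 without DMSO replicate 5 and to -0.063 with Alb in the model. Tead4, a DNA-binding partner of YAP and TAZ, had 1.81, 1.85, 2.22, 1.13 and 0.411 CPM in DMSO replicates 1 to 5 and 2.93, 2.57, 2.32, 1.77 and 1.27 CPM in FICZ replicates 1 to 5. FICZ was higher in all 5 pairs, as for 4.32% of all genes tested, while the groups overlapped. The fitted log2 fold change of Tead4 was 0.55 without a block (SE 0.38; edgeR adjusted p = 0.999) and 0.66 with it (edgeR adjusted p = 0.929). Without DMSO replicate 5 it was 0.31, without the pair numbered 5 it was 0.44, and with Alb in the model 0.25. Ccn1 had one of 0.28 (SE 0.37), and 0.32 with the block (edgeR adjusted p = 0.929). Ccn2, a matricellular target and the most abundant of the list with 138 ± 82.6 CPM per kilobase in DMSO, had 0.22 (SE 0.53), and Lats2, a kinase of the pathway, 0.10 (SE 0.17). Without DMSO replicate 5 the values of Ccn1, Ccn2 and Lats2 were 0.08, -0.02 and -0.02, and with Alb in the model -0.0056, -0.08 and -0.08. Without the whole pair numbered 5 they were 0.25, 0.21 and 0.05.

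Coregulators carry the signal of these factors to chromatin. Of 21 coregulators all were tested, 13 with a log2 fold change above 0 and 8 below, and in edgeR 0 passed the threshold or had an unadjusted p of 0.05 or less, with or without the replicate block. Med1, a Mediator subunit that PPARγ binds, had a log2 fold change of 0.12 (SE 0.091), Prmt5 one of 0.10 (SE 0.083), and Tle3 one of -0.15 (SE 0.12). Without DMSO replicate 5 those of Med1 and Prmt5 were 0.07 and 0.05, and with Alb in the model 0.02 and 0.04. They were 0.06 and 0.09 without the pair numbered 5. For Ppargc1a, the coactivator of the brown program, the libraries held 14 to 107 counts. FICZ was lower in all 5 pairs, as for 2.81% of all genes tested. The log2 value was -0.58 (SE 0.47), and -0.50 with the block (SE 0.21; edgeR adjusted p = 0.929). It was -0.15 without DMSO replicate 5, -0.50 without the pair numbered 5 and 0.17 with Alb in the model. Carm1 was the most abundant per length with 29.9 ± 0.953 CPM per kilobase in DMSO.

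Genes that PPARγ and the C/EBPs switch on in adipocytes were examined as well. Of 23 such genes 22 were tested, Lep having 0 counts, and 4 had a log2 fold change above 0 and 18 below. In edgeR 0 passed the threshold, and 4, Cidec, Cfd, Pck1 and Gpd1, were lower with an unadjusted p of 0.05 or less, where 3.49% of all genes were. With the replicate block there were 2, Cidec and Cfd, where 2.17% of all genes were. The median of the list was -0.20, and -0.16 with the block. Cidec, a lipid droplet protein, had 2.36, 0.924, 0.870, 1.84 and 5.15 CPM in DMSO replicates 1 to 5 and 1.22, 0.573, 0.883, 1.01 and 0.762 CPM in FICZ replicates 1 to 5. DMSO replicate 5 was the highest, as it was for Alb with 4782 CPM against 713 to 1921 CPM in the other DMSO libraries, and the groups overlapped. The log2 fold change of Cidec was -1.33 (SE 0.46; edgeR adjusted p = 0.999), that of Cfd -0.98, that of Pck1 -1.12 and that of Gpd1 -1.02. With the block these values were -1.07, -0.88, -0.77 and -0.70. Without DMSO replicate 5 they were -0.75, -0.71, -0.51 and -0.48. With Alb in the model they were -0.34, -0.34, -0.03 and 0.01, and the median of the list was 0.02. Pck1 and Gpd1 are also liver genes, like Ppara, a PPAR most active in liver, whose log2 fold change was -0.86 (SE 0.37; edgeR adjusted p = 0.999). It was -0.64 with the block, -0.36 without DMSO replicate 5 and -0.04 with Alb in the model. All 15 hepatocyte markers had a lower mean in FICZ (median log2 fold change -1.11, -0.76 with the block and -0.50 without DMSO replicate 5). Of these, 12 had an unadjusted p of 0.05 or less and 0 passed the threshold in edgeR. The 12 became 0 with the block and 0 without DMSO replicate 5. Of the 10 macrophage markers 9 had a log2 fold change below 0 (median -0.78), 3 of them with such a p and 1 with the block, and of the 7 tested endothelial markers 6 were below 0 (median -0.56), 0 of them with such a p and 2 with the block. Without DMSO replicate 5 the median was -0.32 for the macrophage and -0.30 for the endothelial list, with 0 at such a p in each, and of the adipocyte genes 1, Cidec, had such a p, with a list median of -0.03. Alb itself had a log2 fold change of -1.09, so the fit with Alb cannot separate treatment from liver transcripts. The part of liver, macrophage and endothelial transcripts in these values was not tested. Scd1 was the most abundant adipocyte target per length with 308 ± 163 CPM per kilobase in DMSO.

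Replicate number has 4 of the 9 degrees of freedom of the spread and treatment 1. With no effect of either, their mean shares would be 44.4% and 11.1%. These are means, so the medians given next cannot be read against them. Replicate number took up a median of 71.8% of the spread of the 41 genes in log2 CPM, against 58.1% over all genes, and treatment 3.31% against 4.35%. Above 80% were 15 of the 41, against 19.4% of all genes, and treatment took up more than the replicate number in 3 of the 41 (Cebpa, Nr2f2 and Yap1), against 4.69% of all genes. The replicate number that was lowest in DMSO was also the lowest in FICZ for 24 genes, against 31.5% of all genes, and this was replicate 5 for 11 of the 41, against 10.8% of all genes. The same number was highest in both groups for 17 genes, against 35.1% of all genes, and this was replicate 5 for 8 of the 41, against 12.2% of all genes. Over all genes DMSO replicate 5 was the lowest DMSO library for 37.4% and the highest for 35.8%, so that it stood apart beyond the regulators. Among the genes with their lowest value in replicate 5 of both groups were Cebpb, Cebpd, Twist1, Klf4, Klf2 and Hes1, and among those with their highest there were Klf15, Snai2, Nr3c1, Ebf1, Ebf2 and Zfp521. The Hippo targets Ccn1 and Ccn2 were lowest in replicate 5 of both groups too. The source of the differences between the numbers was not tested.

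Stretches of RefSeq promoters were searched for GCGTG, the core of the element that AHR binds, on both strands, and no other motif was searched. Each window held 300 bases, 250 before and 50 after a start, in GRCm38.p6. Of the 42 genes 30 had a window, and Cebpd, Ebf2, Foxc2, Gata6, Hes1, Klf5, Nr3c1, Snai2, Tbx15, Wt1, Zbtb16 and Zfp521 did not. The letters were present for 17 of the 30, or 56.7%, against 54.4% of the 11201 tested genes with a window. By single windows it was 20 of the 41 windows of these genes, or 48.8%, against 32.4% of all 32851 windows. That background is unlike the first, since it includes windows of genes that were not tested. The median log2 fold change was -0.02 for the 17 genes with the letters and -0.06 for the 13 without. A stretch before the start of Ahrr, which rose with FICZ, is given with the letters, or CACGC where they lie on the other strand, in capitals, beside those of Klf15 and Pparg, which carry the letters as well and did not pass the threshold. They lie at chr13:74292332-74292463 on the minus strand, chr6:90462429-90462524 on the plus strand and chr6:115360894-115361143 on the plus strand.
Ahrr: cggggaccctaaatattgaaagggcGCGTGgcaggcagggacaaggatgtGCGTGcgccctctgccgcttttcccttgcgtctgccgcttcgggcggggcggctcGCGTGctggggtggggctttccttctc
Klf15: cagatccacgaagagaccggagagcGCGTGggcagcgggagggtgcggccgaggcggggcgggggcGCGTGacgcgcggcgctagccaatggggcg
Pparg: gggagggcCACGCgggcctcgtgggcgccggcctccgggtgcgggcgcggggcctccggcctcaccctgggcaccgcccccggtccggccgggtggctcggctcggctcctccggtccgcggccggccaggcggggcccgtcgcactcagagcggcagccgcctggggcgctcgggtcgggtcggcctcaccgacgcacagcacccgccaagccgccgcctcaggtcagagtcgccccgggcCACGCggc
Ahrr held 3 matches in its window, and Klf15 and Pparg 2 each, while 2 further windows of Pparg held 0. A match shows the letters and not a bound site.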

How the data were processed

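Bulk RNA sequencing was measured in 10 libraries of cultured mouse ASPCs, 5 given DMSO and 5 given 100 nM FICZ for 6 hr. The authors aligned the reads with STAR 2.7.7 to mm10 and deposited raw counts per gene symbol. The counting program, its annotation and its handling of strand are not given in the sources used here. The regulators and the other gene lists were chosen with earlier results of these data known.

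Counts were filtered with filterByExpr, scaled by TMM and compared by the quasi-likelihood test (robust) of edgeR 4.0.16 with limma 3.58.1 in R 4.3.3, with Benjamini-Hochberg adjustment over all genes tested and a threshold of 0.05. DESeq2 1.42.0 and limma-voom were run beside it. Fold changes were printed for Pparg, Cebpa, Cebpb and Cebpd, for regulators with an unadjusted p of 0.05 or less in edgeR with or without the block, and for at most 4 genes per pathway list with the smallest p, and others were named after their values were seen. Exon lengths came from the GENCODE annotation of GRCm38. Whether the numbers pair libraries was checked by correlating deviations from the group mean across genes, which gave a mean of 0.252 for libraries of the same number and -0.0599 for others. The shares of spread came from a split of log2 CPM into replicate number, treatment and remainder. Alternatives were the replicate block, other scalings and filters, Alb as a covariate, and leaving out each library or the pair numbered 5. The procedure was tested on simulated data.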

Additional observations from a re-analysis of the deposited data

Results flagged for a closer look

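In 4 of 82 groups of 5 libraries the lowest or highest library stood apart from the others, and chance does so in about 1 in 20 groups. For Cebpd, DMSO replicate 5 had 18.4 CPM against 34.0 to 36.6 CPM in the other DMSO libraries, a gap of 0.894 of the group's range. For Rxrb, FICZ replicate 3 had 22.7 CPM against 30.3 to 31.4 CPM, a gap of 0.892 of the range. For Nr2f1, FICZ replicate 5 had 45.6 CPM against 52.1 to 54.7 CPM, a gap of 0.731 of the range. For Foxo1, DMSO replicate 5 was the highest with 42.9 CPM against 25.8 to 29.3 CPM, a gap of 0.754 of the range. The causes were not tested.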

How the results depend on the processing

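Under every alternative run 0 of the regulators passed an adjusted p of 0.05, and 0 passed 0.1. The number with an unadjusted p not above 0.05 was 0 in edgeR as reported (4.82% of all genes), 2 with the replicate block (4.65%), 1 with upper-quartile factors (4.74%), 1 with a filter of at least 1 CPM in 5 libraries (4.34%), 1 in DESeq2 (4.89%), 2 in DESeq2 with the block (3.66%), 2 without the pair numbered 5 (2.63%), 1 with Alb as a covariate (2.12%), and from 0 to 2 when libraries were left out in turn (from 2.39% to 6.46%). Among all genes the 3 past the threshold became 8 with the block, 16 in DESeq2, 26 in DESeq2 with the block, 0 without the pair numbered 5, and from 1 to 4 without single libraries, with 1 when DMSO replicate 1 or 2 or FICZ replicate 1, 2 or 3 was left out. The median log2 fold change of the regulators stayed between -0.066 and -0.015. Their median level was 11.9 CPM per kilobase with the length of the longest transcript, against 8.64. Replicate number took up 63.3% of their spread without the pair numbered 5, against 59.7% over all genes, an alternative chosen after seeing the data.

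The value of Cebpb, 0.0026 as reported, turned to -0.0033 with DESeq2 size factors, -0.014 with upper-quartile factors, -0.012 with library totals, -0.0064 without a filter, -0.016 with the 1 CPM filter, -0.0012 in DESeq2, -0.0041 in DESeq2 with the block, -0.00066 in limma-voom, -0.016 without the pair numbered 5 and -0.10 with Alb as a covariate. With Alb as a covariate Cebpd turned to -0.14, Klf15 to 0.079, Ppargc1a to 0.17, Gpd1 to 0.013, Lcn2 to 0.19, Mt1 to 0.044, Ccn1 to -0.0056, Lats2 to -0.079 and Ccn2 to -0.082. Mt1 was 0.011 without the pair numbered 5. Leaving out single libraries gave from -0.15 to 0.12 for Cebpb, from -0.050 to 0.19 for Cebpd, from -0.016 to 0.19 for Lats2 and from -0.19 to 0.52 for Ccn2. Without a change of sign the range was -0.54 to -0.07 for Klf15, -0.41 to -0.06 for Snai2, -0.94 to -0.15 for Ppargc1a, -0.38 to -0.14 for Errfi1, -0.23 to -0.09 for Tle3, 0.31 to 0.74 for Tead4 and 0.03 to 0.52 for Ccn1. The replicate block turned no direction among the genes given with a fold change. Ahrr missed the threshold without the pair numbered 5 (edgeR adjusted p = 0.0615), and Cyp1a1 in 8 of 21 alternatives. The cause was not tested. The filter on low counts kept Tbx15, with 6 to 12 counts in a library, out of the edgeR test. Without a filter all 42 regulators were tested.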
